A study of Homo sapiens with 4 samples.

Results

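The Notch pathway genes examined here are 10 genes chosen by symbol, out of 57820 gene models measured by RNA sequencing in G401 cells. They are the receptors NOTCH1, NOTCH2 and NOTCH3, the ligands JAG1, JAG2 and DLL1, the nuclear factors RBPJ and MAML1, and the target genes HES1 and HEY1. The 10 symbols took up 11 gene models, since JAG1 is listed with a further model that had 0 counts in every library. G401 is an established line of kidney rhabdoid tumour cells, and such tumours lack SMARCB1, a subunit of SWI/SNF chromatin remodelling complexes. In all, 4 libraries were measured: 2 BRD9 KO libraries, from cells in which the bromodomain gene BRD9 was knocked out, and 2 control libraries labelled LacZ. The cells of both groups are thus SMARCB1-deficient and were grown in DMEM with serum. The question behind the comparison is what loss of BRD9, a subunit of a SWI/SNF subcomplex that works without SMARCB1, does to transcription in such cells. Whether the BRD9 KO cells were a clone or a mixed population, and how long after the knockout they were harvested, is not given in the sources used here. Replicates are called biological in the study's methods, while the labels are silent on separate cultures. The p-values reflect the spread between these libraries alone. In bulk RNA, fewer cells of a kind and less RNA per cell cannot be told apart.

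Notch signalling passes between touching cells. A Jagged or Delta-like ligand on one cell pulls on a NOTCH receptor on its neighbour, the receptor is cut first by an ADAM protease and then by gamma-secretase, and its intracellular part travels to the nucleus. There it binds the DNA-bound factor RBPJ together with a Mastermind-like coactivator such as MAML1, and repressor genes such as HES1 and HEY1 are switched on. Without the intracellular part, RBPJ binds corepressors and holds the same genes down.

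RBPJ recognises TGGGAA, most strongly as GTGGGAA, and the promoters of HES and HEY genes are the textbook place for such sites. To show them, RefSeq promoters (GRCh38.p14, 250 bases before to 50 bases after each start) were searched on both strands for both words. The longer word contains the shorter one. TGGGAA was present in 24.0% of all 35116 promoters and GTGGGAA in 6.25%. Of the 10 Notch pathway genes, 8 had a promoter in the table, and HES1 and RBPJ were the 2 that held either word, RBPJ in 1 of its 5 promoters. In the list of HES, HEY and NRARP genes, 10 of 11 had a promoter, 6 held TGGGAA and 5 held GTGGGAA (HES1, HES4, HES5, HEY2 and HEYL). Stretches around the words are shown for HES1, which was transcribed at a low level, for HES5 and HEYL, which had 0 counts, and for RBPJ, whose transcript was lower in BRD9 KO. They are written 5′ to 3′ on the strand of the gene, with TGGGAA or its reverse complement in capitals:
HES1: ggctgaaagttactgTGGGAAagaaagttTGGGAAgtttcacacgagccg
HES5: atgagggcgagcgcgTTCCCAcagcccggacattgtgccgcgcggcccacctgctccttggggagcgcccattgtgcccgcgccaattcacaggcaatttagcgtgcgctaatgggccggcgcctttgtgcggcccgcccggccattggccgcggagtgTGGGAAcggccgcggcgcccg
HEYL: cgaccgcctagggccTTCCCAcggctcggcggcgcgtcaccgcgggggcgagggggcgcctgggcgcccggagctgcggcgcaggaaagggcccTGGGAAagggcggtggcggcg
RBPJ: tttaggaaatTTCCCAcggccgtgtt

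Each stretch matched the GRCh37 genome, which is the sequence of hg19, at 1 place. The HES1 stretch is chr3:193853838-193853887 on the plus strand, where the TGGGAA words begin 84 and 70 bases before the RefSeq start and run in the same direction. The HES5 stretch is chr1:2461762-2461941 and the HEYL stretch chr1:40105394-40105508, both on the minus strand and both ending before the first annotated exon. Their words begin 224 and 80 bases before the start for HES5, and 178 and 99 bases before it for HEYL, in opposite directions. The RBPJ stretch is chr4:26321243-26321268 on the plus strand, inside the RBPJ gene before one of its alternative starts, and its last 11 bases lie in an annotated RBPJ exon. A further TGGGAA in that promoter begins 72 bases before the start. These are matches of letters and not measured binding sites.

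Library totals ran from 15053195 to 19559200 rounded counts, and a count of 3, the limit that a count of 0 allows, corresponded to 0.153 to 0.199 counts-per-million (CPM), for counting error only. The BRD9 transcript stood at 29.4 and 26.8 CPM in the BRD9 KO libraries, against 48.2 and 53.8 CPM in the LacZ control libraries, and SMARCB1 had 0 counts in all 4. Over all 15288 genes tested, 5901 passed an adjusted p under 0.05 in edgeR's quasi-likelihood test (38.6%), with 20.5% higher and 18.1% lower in BRD9 KO and a median log2 fold change of -0.006. Of 5 endothelial and 5 blood cell markers, 4 and 5 were listed, 3 of each were at 0 counts throughout, and each list summed to at most 3.12 CPM in any library. Of the epithelial markers, CDH1 and EPCAM had 0 to 6 counts and KRT19 had 0 and 1 counts in BRD9 KO, against 4 and 5 counts in LacZ control, while KRT8 and KRT18, keratins of simple epithelia, were abundant and higher in BRD9 KO (log2 fold changes of 0.42 and 0.37). The summed epithelial list was 6482 and 6452 CPM in BRD9 KO, against 4931 and 4886 CPM in LacZ control. VIM, the mesenchymal intermediate filament vimentin, was 1269 and 1276 CPM in BRD9 KO, against 1788 and 1797 CPM in LacZ control. The part of this shift in the results on Notch pathway genes was not tested.

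Knockout of BRD9 left most of the Notch pathway genes that could be tested at nearly their control level. RBPJ was the exception on the lower side and JAG2 on the higher side. Of the 10 genes, 7 passed the filter on low counts. Of these 7, RBPJ fell, JAG2 and NOTCH2 rose, and NOTCH1, NOTCH3, HES1 and MAML1 did not pass the test. The 3 that passed make up 42.9% of the 7, beside 38.6% of all genes tested, so that as a group they were called about as often as other genes. Their median log2 fold change was -0.04, beside -0.006 over all genes. JAG1, DLL1 and HEY1 had too few counts for a test.

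**Figure D1:**
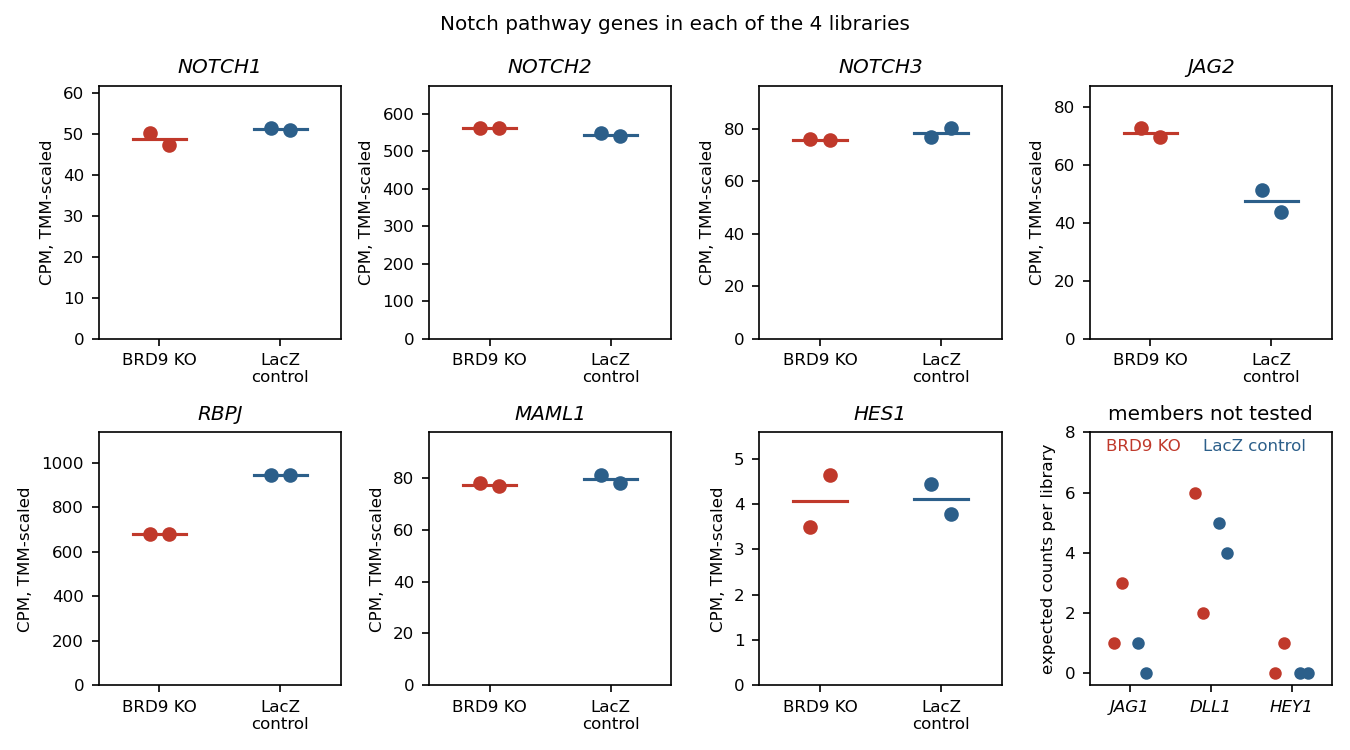
Level of each Notch pathway gene in each library, BRD9 KO left of LacZ control. The vertical axes give TMM-scaled CPM from 0, points are single libraries and lines are means of 2 libraries. The last panel gives expected counts for the 3 genes that were not tested. RBPJ lies near 680 CPM in BRD9 KO and near 947 CPM in LacZ control without overlap, JAG2 is higher in both BRD9 KO libraries, and the other panels show groups that are close or overlap.

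RBPJ (ENSG00000168214.16), the DNA-binding factor through which all 4 receptors act, lies on the plus strand of chromosome 4, from 26165077 to 26436753 on GRCh37. It stood at 678 and 681 CPM in the BRD9 KO libraries, against 947 and 947 CPM in the LacZ control libraries. Both BRD9 KO libraries were far below both controls, and replicates of a group differed by less than 5 CPM. The means were 679.7 ± 2.3 CPM in BRD9 KO and 946.9 ± 0.419 CPM in LacZ control (SD, n = 2 each), which left 71.8% of the control mean. On the log2 scale the difference was -0.48 ± 0.01 (SE, edgeR adjusted p = 9.2e-17). RBPJ passed under all 13 alternatives, with log2 fold changes between -0.49 and -0.46. Among all genes tested, RBPJ ranked 29 by p, but 30.4% of the 2774 genes called lower fell further. The estimated counts of its 4 listed pseudogenes did not exceed 3.05 in any library, and those of RBPJL, its relative, were 0. Reads assigned to such copies were therefore few beside RBPJ, which had at least 11126 counts in every library.

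RBPJ was also the most abundant of the 10 transcripts. Levels of different genes are compared here in transcripts-per-million (TPM), which divides by transcript length. RBPJ had 252.3 and 256.6 TPM in BRD9 KO, against 348.6 and 353.0 TPM in LacZ control. The summed TPM of the receptors NOTCH1 to NOTCH4 was 115.5 and 111.2 in BRD9 KO, against 108.8 and 111.4 in LacZ control. The ratio of RBPJ to the summed receptors was 2.18 and 2.31 in BRD9 KO, against 3.21 and 3.17 in LacZ control, and the groups did not overlap. An exact two-sided permutation test of this ratio gave p = 0.333, the smallest value that 2 libraries against 2 allow, so that it cannot pass 0.05.

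MAML1 (ENSG00000161021.7, chromosome 5, from 179159823 to 179204284, plus strand), which bridges RBPJ and the receptor fragment to histone acetyltransferases, had 78.2 and 76.8 CPM in BRD9 KO, against 81.3 and 78.1 CPM in LacZ control. The groups overlapped. Its log2 fold change of -0.04 (standard error 0.04, edgeR adjusted p = 0.474) has a 95% interval of -0.11 to 0.04. Its relatives MAML2 and MAML3 had at most 8 counts in any library.

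NOTCH2 was the leading receptor transcript in every library. NOTCH2 (ENSG00000134250.13, chromosome 1, from 120454176 to 120643366, minus strand) had 86.1 and 84.3 TPM in BRD9 KO, against 82.9 and 82.5 TPM in LacZ control. NOTCH3 (ENSG00000074181.4, chromosome 19, from 15269849 to 15311806, minus strand) had 19.97 and 17.89 TPM in BRD9 KO, against 16.2 and 19.3 TPM in LacZ control. NOTCH1 (ENSG00000148400.9, chromosome 9, from 139388885 to 139440500, minus strand) had 8.98 and 8.64 TPM in BRD9 KO, against 9.40 and 9.26 TPM in LacZ control. The order NOTCH2, NOTCH3, NOTCH1 held without overlap between neighbours in both groups. NOTCH4, known from endothelial cells, had 9 and 5 counts in BRD9 KO, against 3.24 and 7 counts in LacZ control. Exons of NOTCH4 overlap those of GPSM3 on the same strand, by up to 98 bases.

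The shares of receptor transcripts held by NOTCH2 and NOTCH3 overlapped between the groups, and those held by NOTCH1 did not. An exact test of 2 libraries against 2 cannot go below p = 0.333, so these p-values are a description. NOTCH2 held 75.2% ± 0.918 of receptor TPM in BRD9 KO and 75.1% ± 1.59 in LacZ control (SD, n = 2 each, exact two-sided permutation p = 1.0). NOTCH3 held 16.7% ± 0.849 in BRD9 KO and 16.1% ± 1.73 in LacZ control (SD, n = 2 each, exact permutation p = 1.0). NOTCH1 held 7.78% and 7.77% in BRD9 KO, against 8.64% and 8.31% in LacZ control. Both NOTCH1 shares of BRD9 KO were below both of LacZ control, at the smallest p the design allows (exact permutation p = 0.333).

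In the test on counts, the receptors differed little between groups. NOTCH2 had 562.2 and 562.5 CPM in BRD9 KO, against 550.1 and 540.5 CPM in LacZ control, a log2 fold change of 0.04 ± 0.02 (SE, edgeR adjusted p = 0.0247). This rise of 1.03-fold passed in 6 of 13 alternatives (adjusted p of 0.0148 to 0.505 over all 13). It was lost without BRD9 KO replicate 1 or 2 or LacZ control replicate 2 (edgeR adjusted p of 0.0541, 0.0605 and 0.273), with library totals alone (0.0526), and with at least 1 CPM required in all libraries (0.0534). NOTCH2NL, a partial copy of NOTCH2 whose reads the counting model has to separate from it, moved the other way, with 32.3 and 33.2 CPM in BRD9 KO, against 35.2 and 39.2 CPM in LacZ control (log2 fold change -0.19, edgeR adjusted p = 0.0256), a call lost without BRD9 KO replicate 1 or 2 or LacZ control replicate 2 (0.123, 0.053 and 0.337), with DESeq2 (0.209) and with limma on log2(TPM + 1) (0.348). With both summed, the log2 fold change was 0.03 and did not pass (edgeR adjusted p = 0.0959).

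NOTCH1 had 50.3 and 47.3 CPM in BRD9 KO, against 51.5 and 51.1 CPM in LacZ control. Its log2 fold change of -0.07 (standard error 0.05, edgeR adjusted p = 0.299) has a 95% interval of -0.17 to 0.03. NOTCH3 had 76.2 and 75.6 CPM in BRD9 KO, against 77.0 and 80.3 CPM in LacZ control, with a log2 fold change of -0.05 (standard error 0.04, edgeR adjusted p = 0.313). For NOTCH3 the direction depended on the unit: on the log2(TPM + 1) scale it was 0.090 and likewise did not pass (limma adjusted p = 0.64). The average transcript length that RSEM assigned to NOTCH3 was 6404 and 7086 bases in BRD9 KO, against 7914 and 6914 bases in LacZ control, and this length enters TPM but not counts.

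JAG2 was the most abundant canonical ligand transcript and rose in BRD9 KO. JAG2 (ENSG00000184916.4, chromosome 14, from 105607319 to 105635161, minus strand) had 72.7 and 69.4 CPM in BRD9 KO, against 51.1 and 43.7 CPM in LacZ control. Both BRD9 KO libraries were above both controls. The means were 71.1 ± 2.3 CPM in BRD9 KO and 47.4 ± 5.28 CPM in LacZ control (SD, n = 2 each). On the log2 scale the rise was 0.59 ± 0.06 (SE, edgeR adjusted p = 5.74e-06), or 1.51-fold, and 12.6% of the genes called higher rose further. In TPM, JAG2 was 42.4 and 32.3 in BRD9 KO, against 27.4 and 20.5 in LacZ control. The log2(TPM + 1) difference was of similar size, 0.62, but did not pass (limma adjusted p = 0.0883), and it is the 1 alternative of 13 that ended the call. The assigned length varied within groups, at 2919 and 3643 bases in BRD9 KO, against 3161 and 3581 bases in LacZ control.

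DLL3, which is not among the 10 genes but belongs to the same ligand family, was the other canonical ligand with enough counts. DLL3 is known to act inside the cell that makes it, holding Notch receptors back. It had 14.5 and 14.3 CPM in BRD9 KO, against 7.23 and 7.02 CPM in LacZ control, a log2 fold change of 1.01 ± 0.11 (SE, edgeR adjusted p = 4.13e-07). It passed under all 13 alternatives. The summed TPM of the 5 canonical ligands was 55.5 and 45.6 in BRD9 KO, against 33.9 and 26.7 in LacZ control. JAG2 held 73.6% ± 4.06 of it in BRD9 KO and 78.6% ± 2.77 in LacZ control (SD, n = 2 each), and DLL3 held 25.9% ± 3.95 in BRD9 KO and 20.4% ± 2.59 in LacZ control. The ratio of summed ligands, DLL3 included, to summed receptors was 0.48 and 0.41 in BRD9 KO, against 0.31 and 0.24 in LacZ control. This was again at the smallest p the design allows (exact permutation p = 0.333).

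The other canonical ligands were barely detected. DLL1 (ENSG00000198719.7, chromosome 6, from 170591294 to 170615653, minus strand), a Delta-like activator of Notch, had 6 and 2 counts in BRD9 KO, against 5 and 4 counts in LacZ control. Relative to library totals that is a ratio of 0.784 with an exact 95% counting interval of 0.263 to 2.29, so that a difference was not detectable at this depth. Exons of DLL1 overlap those of FAM120B on the opposite strand, and the kit named does not mark strand. JAG1 (ENSG00000101384.7, chromosome 20, from 10618332 to 10654647, minus strand), a ligand whose mutations cause Alagille syndrome, had 1 and 3 counts in BRD9 KO, against 1 and 0 counts in LacZ control. DLL4, an endothelial ligand, had 3 and 5 counts in BRD9 KO, against 1 and 5 in LacZ control.

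**Figure D2:**
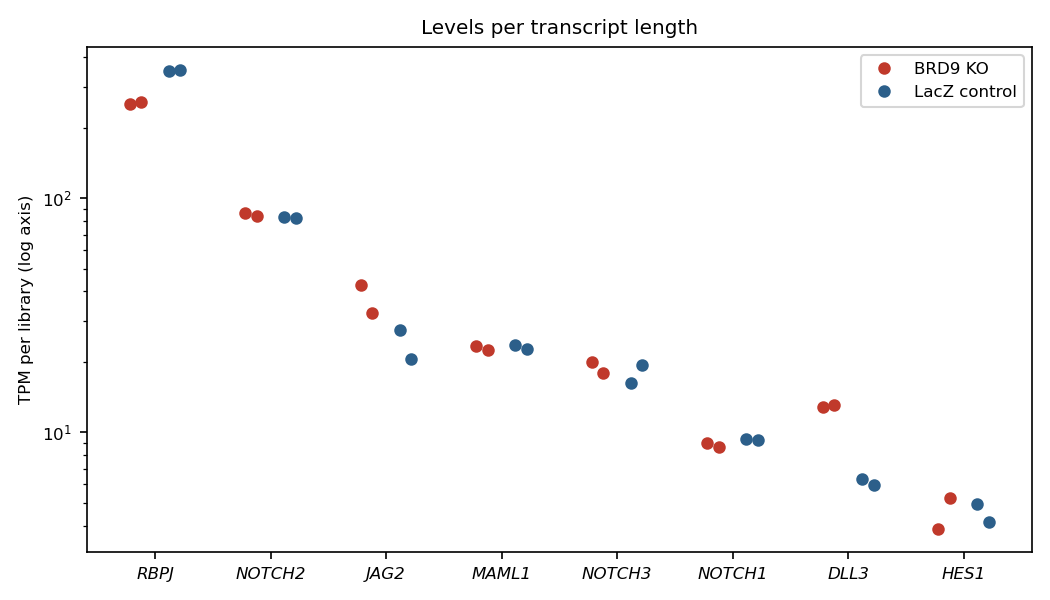
TPM of the 7 tested Notch pathway genes and of DLL3 in each library on a log axis, BRD9 KO left of LacZ control within each gene. RBPJ is the highest and HES1 the lowest of the 7, with NOTCH2 the highest receptor between 82.5 and 86.1 TPM. JAG2 and DLL3 are higher in both BRD9 KO libraries than in both LacZ control libraries.

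In BRD9 KO the full order by TPM was RBPJ, NOTCH2, JAG2, MAML1, NOTCH3, NOTCH1, HES1, DLL1, HEY1 and JAG1, and neighbours down to DLL1 did not overlap, while DLL1, HEY1 and JAG1 did. In LacZ control the order was the same down to DLL1. There JAG2, at 20.5 to 27.4 TPM, and MAML1, at 22.7 to 23.7 TPM, overlapped.

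HES1, the target gene most often used as a readout of Notch activity, was low and was not called in either direction. HES1 (ENSG00000114315.3, chromosome 3, from 193853937 to 193856521, plus strand) had 68 and 76 counts in BRD9 KO, against 67 and 63 counts in LacZ control. Scaled, this was 3.49 and 4.65 CPM in BRD9 KO, against 4.44 and 3.78 CPM in LacZ control, and the groups overlapped. Its log2 fold change of -0.02 (standard error 0.20, edgeR adjusted p = 0.951) has a 95% interval of -0.41 to 0.37, and it turned to 0.19 without BRD9 KO replicate 1 and to 0.10 without LacZ control replicate 1. A change of 1.2-fold lies within this interval. The interval takes the estimate as normally distributed and can be too narrow with 2 libraries per group. A change of a size like that of RBPJ lies a little outside it and is therefore not firmly excluded. HEY1 (ENSG00000164683.12), a repressor related to HES1, had 0 and 1 count in BRD9 KO and 0 counts in both LacZ control libraries.

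The other HES genes and NRARP, whose product is a feedback inhibitor of the Notch complex, were examined from a list of 11 HES, HEY and NRARP genes. Of 6 tested, 4 rose (66.7%, beside 20.5% of all genes called higher), 0 fell, and HES1 and HES7 did not pass. The median log2 fold change was 0.41. The list was set by gene name, and whether each gene answers to Notch in these cells was not tested. HES3, HES5, HEY2 and HEYL had 0 counts in all 4 libraries.

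NRARP had 10.7 and 11.3 CPM in BRD9 KO, against 7.10 and 8.04 CPM in LacZ control. It rose by 0.53 ± 0.12 (log2, SE, edgeR adjusted p = 0.0016), with both BRD9 KO libraries above both controls. On the log2(TPM + 1) scale this call was lost (limma adjusted p = 0.0761, the highest over its alternatives, whose lowest was 0.000162).

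HES2 had 70 and 37 counts in BRD9 KO, against 13 and 13 counts in LacZ control. Its log2 fold change of 1.84 (standard error 0.33, edgeR adjusted p = 0.000157) was the largest in the wider list, on low counts, with BRD9 KO replicate 1 well above BRD9 KO replicate 2. HES4 had 12.26 and 11.02 CPM in BRD9 KO, against 8.69 and 9.12 CPM in LacZ control (log2 fold change 0.39, edgeR adjusted p = 0.0103). HES6, a family member known to counteract HES1, had 8.87 and 9.49 CPM in BRD9 KO, against 7.16 and 6.42 CPM in LacZ control (log2 fold change 0.43, edgeR adjusted p = 0.0127). These rises are of 1.31-fold and 1.35-fold, and with DESeq2 neither passed (adjusted p of 0.09 for HES4 and 0.101 for HES6). The HES4 call was lost when BRD9 KO replicate 1 or either LacZ control library was left out (edgeR adjusted p of 0.11, 0.085 and 0.0513), and that of HES6 without replicate 2 of BRD9 KO or of LacZ control (0.0646 and 0.123).

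HES7, a gene of the segmentation clock, had 4.77 and 5.45 CPM in BRD9 KO, against 4.84 and 4.68 CPM in LacZ control, and did not pass (log2 fold change 0.10, edgeR adjusted p = 0.687). Set against the promoter words, HES4 was the 1 of the 4 risers that held GTGGGAA, and the promoters of HES2, HES6 and NRARP held neither word. HES1, HES5, HEY2 and HEYL held GTGGGAA, and of these HES1 was the 1 with counts above 0.

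**Figure D3:**
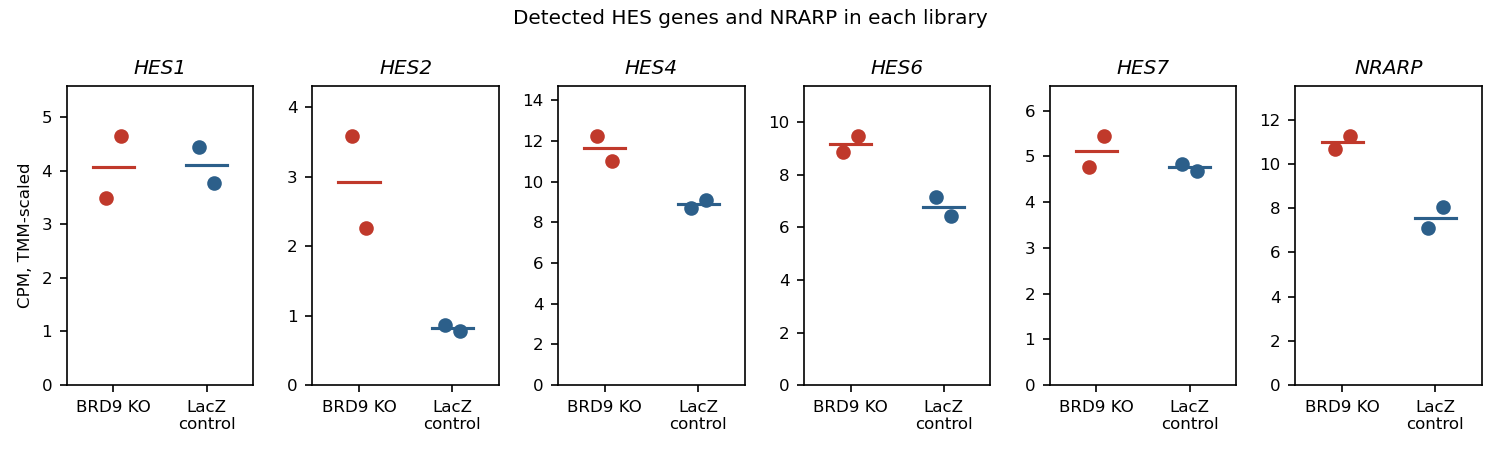
TMM-scaled CPM of the 6 detected genes of the HES, HEY and NRARP list in each library, BRD9 KO left of LacZ control, each axis starting at 0. Points are single libraries and lines are means of 2 libraries. HES2, HES4, HES6 and NRARP are higher in both BRD9 KO libraries, whereas HES1 and HES7 overlap.

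The rest of the pathway was read from lists by role, 78 genes in all with the 10 above, of which 62 were tested. Of these 62, 21 rose and 7 fell (45.2% called, beside 38.6% of all genes tested), and the median log2 fold change was 0.06, beside -0.006 over all genes. By direction, 20.5% of all genes were called higher and 18.1% lower. Limma on the log2(TPM + 1) scale changes the unit, the test and the filter together. With it, 4 genes of the wider list were called higher and 3 lower. Among the calls lost were those of POFUT1, ADAM10, NUMBL, FBXW7, KAT2A, KAT2B, KDM1A, TLE2, HES2, HES4, HES6 and MFNG. Their limma adjusted p ran from 0.0529 to 0.353, each with its direction kept. Calls of genes not in this row of names were lost as well, NOTCH2 (0.505) among them.

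All 5 genes of receptor glycosylation passed (100%, beside 38.6% of all genes tested), 4 of them higher. POFUT1, which adds the O-fucose that the Fringe enzymes extend, had 80.0 and 75.9 CPM in BRD9 KO, against 64.2 and 64.7 CPM in LacZ control (log2 fold change 0.28, edgeR adjusted p = 1.63e-05). LFNG, a Fringe enzyme of the kind that tunes which ligands a receptor answers to, had 5.28 and 5.08 CPM in BRD9 KO, against 2.52 and 2.22 CPM in LacZ control (log2 fold change 1.13, standard error 0.20, edgeR adjusted p = 0.000136). MFNG, its relative, named after its values were seen, went the other way on low counts, with 18 and 10 counts in BRD9 KO, against 28 and 36 counts in LacZ control (log2 fold change -1.36, edgeR adjusted p = 0.00441). The MFNG call did not hold with DESeq2 (adjusted p = 0.0558), nor with edgeR without replicate 2 of BRD9 KO or of LacZ control (0.0523 and 0.073). RFNG, also a Fringe enzyme, had a mean of 36.4 TPM in BRD9 KO and 29.1 TPM in LacZ control. The means of LFNG were 4.46 and 2.22 TPM. RFNG was called higher (log2 fold change 0.22, edgeR adjusted p = 0.0165) and passed in 9 of 13 alternatives.

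Of 9 tested genes of receptor cleavage, 2 rose and 1 fell (33.3% called, beside 38.6% of all genes tested). PSEN2, a catalytic subunit of gamma-secretase, had 30.0 and 28.4 CPM in BRD9 KO, against 21.2 and 22.1 CPM in LacZ control (log2 fold change 0.43, edgeR adjusted p = 6.69e-05). ADAM10, the protease of the first ligand-induced cut, had 142.8 and 144.2 CPM in BRD9 KO, against 153.4 and 163.2 CPM in LacZ control (log2 fold change -0.14, edgeR adjusted p = 0.00105). Without LacZ control replicate 2 the ADAM10 call was lost (edgeR adjusted p = 0.0639).

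Of 3 tested ubiquitin ligases that act on ligands, MIB1 fell and the others did not pass (33.3% called, beside 38.6% of all genes tested). MIB1, which drives ligand endocytosis in the sending cell, had 403.5 and 411.6 CPM in BRD9 KO, against 496.4 and 489.7 CPM in LacZ control. Its log2 fold change of -0.28 (standard error 0.02, edgeR adjusted p = 1.26e-10) passed under all 13 alternatives. Among 2 tested non-canonical ligands, EGFL7, a secreted protein that can bind Notch receptors, fell by 0.26 (log2, edgeR adjusted p = 0.00993). It did not pass with DESeq2 (adjusted p = 0.114), or with edgeR without replicate 2 of BRD9 KO or of LacZ control (0.0946 and 0.109).

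Of 8 tested genes of receptor trafficking and turnover, 2 rose and 0 fell (25.0% called, beside 38.6% of all genes tested). NUMBL, a relative of the Notch antagonist NUMB, rose by 0.29 (log2, edgeR adjusted p = 0.00221), and FBXW7, which marks the receptor fragment for destruction, rose by 0.25 (edgeR adjusted p = 0.00455).

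Beside RBPJ, 2 of the 9 tested genes of the nuclear activation complex passed (33.3% called with RBPJ, beside 38.6% of all genes tested). They were the histone acetyltransferases KAT2A, higher by 0.30 (log2, edgeR adjusted p = 0.000143), and KAT2B, higher by 0.43 (log2, edgeR adjusted p = 0.00101). Among 15 tested corepressors of RBPJ, 6 were called, about as often as all genes tested (38.6%). Of these 6, 4 rose and 2 fell. The median log2 fold change of the 15 was -0.04. The 2 that fell were KDM1A, a histone demethylase, at 161.7 and 160.7 CPM in BRD9 KO, against 179.0 and 181.0 CPM in LacZ control (edgeR adjusted p = 7.11e-05), and TLE2, a Groucho-type corepressor, at 17.8 and 18.5 CPM in BRD9 KO, against 23.3 and 25.7 CPM in LacZ control (edgeR adjusted p = 0.000181).

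**Figure D4:**
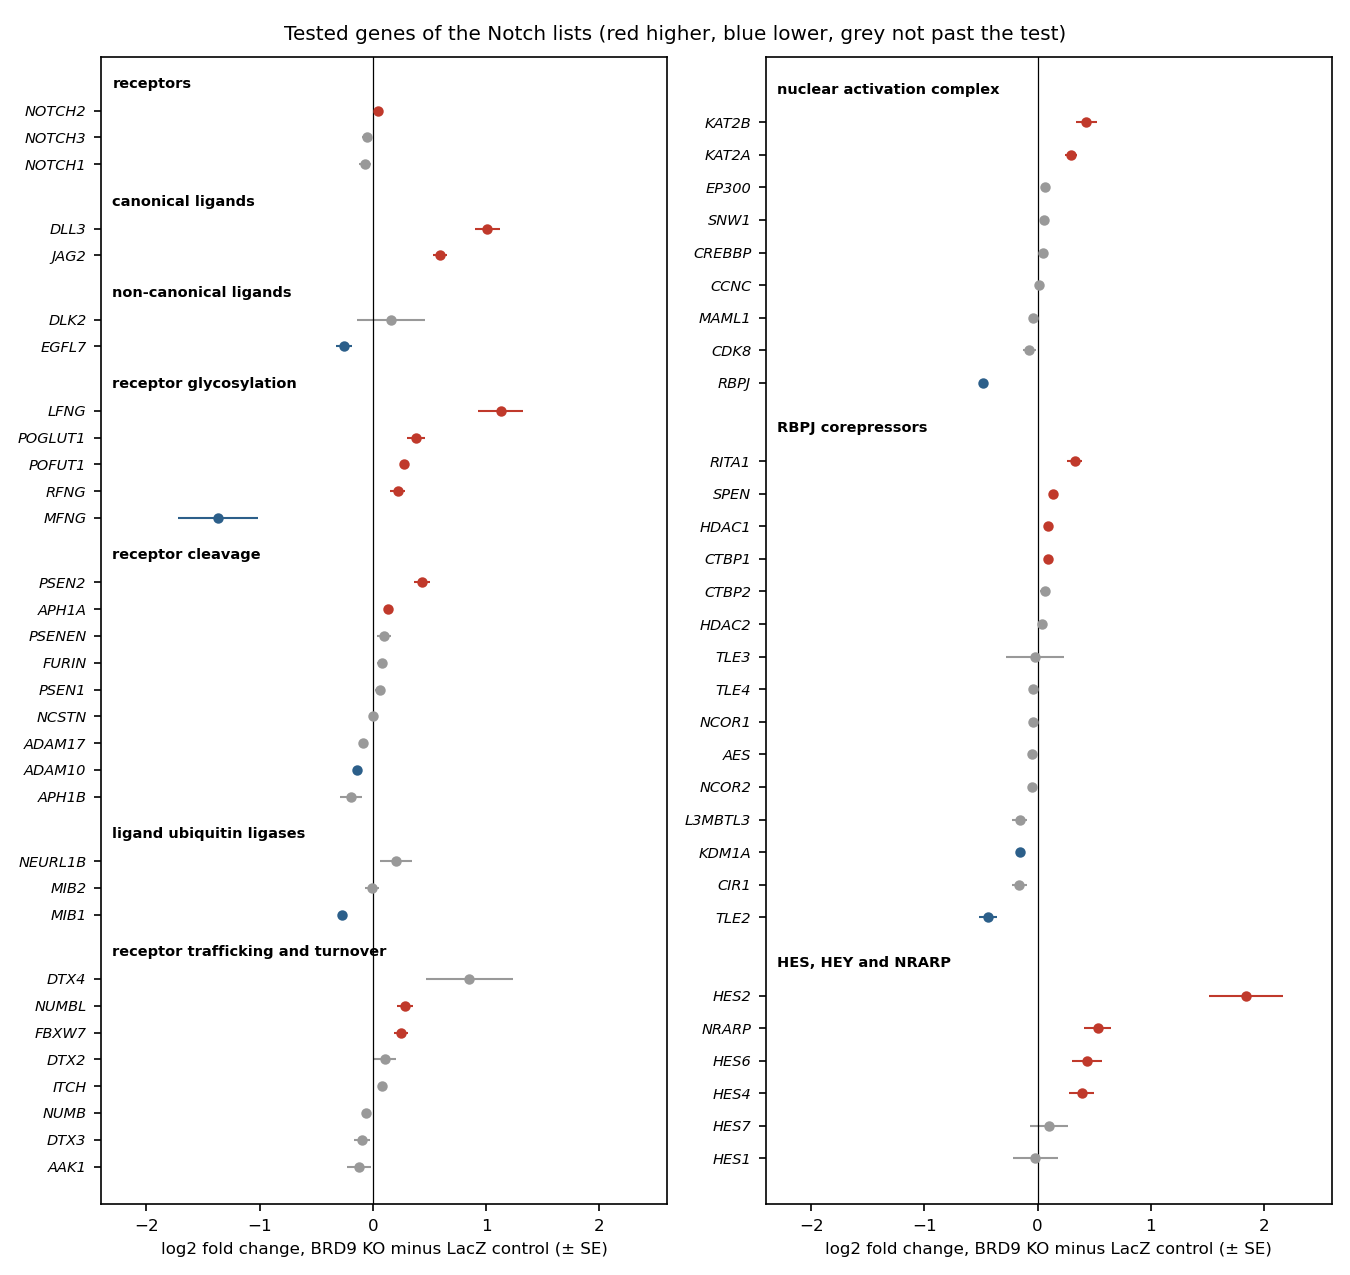
Log2 fold change, BRD9 KO minus LacZ control, for the 62 tested genes of the Notch lists, grouped by role. Points are edgeR estimates, bars are 1 standard error, red marks genes called higher, blue genes called lower and grey genes that did not pass. The 3 receptors sit near 0, both tested canonical ligands and 4 of 5 glycosylation genes lie to the right, the non-canonical ligand EGFL7 is called lower, and RBPJ is the 1 gene of its group called lower.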

How the data were processed

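RNA sequencing libraries of G401 cells, 2 BRD9 KO and 2 LacZ control, were all used. Per the methods, the authors used STAR for alignment (hg19), RSEM for quantification and DESeq2 for their own comparison. The submitters' processing notes name the same tools, and no source used here gives versions. The deposited expected count (estimated count) of a gene divides reads shared between genes by a model and is not scaled between libraries. The deposited TPM divides by effective length within a library. The deposited TPM credibility bounds, taken as a signal, were not used. The kit named in the methods does not mark strand, and labels and methods name different RNA extractions.

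Expected counts were rounded to whole numbers and tested with edgeR 4.0.16 in R 4.3.3 (quasi-likelihood, TMM, filterByExpr, robust, two-sided), with Benjamini-Hochberg adjustment over 15288 genes and a call where that value was below 0.05. The log2 difference is coded as BRD9 KO minus LacZ control. The test was tried on simulated data with known changes, where false calls made up more than the nominal share of calls. Coordinates are from GENCODE v44 on GRCh37, and exon overlaps with tested genes were found with bedtools 2.31.1. All 10 genes are named, with up to 2 called genes of smallest p per role list, all HES, HEY and NRARP genes, receptors and canonical ligands. Beyond this rule, MFNG, RFNG and the 4 genes of the corepressor list that rose are also named. The genes and lists were chosen with earlier results of these data known. Alternatives were DESeq2 1.42.0, limma 3.58.1 (voom, and log2(TPM + 1) with TPM of at least 1 in 2 libraries), RLE factors, library totals, no filter, at least 1 CPM in all libraries, replicate block, each library left out, and NOTCH2 and RBPJ summed with their copies.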

Additional observations from a re-analysis of the deposited data

How the results depend on the processing

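RBPJ, DLL3, LFNG, PSEN2, MIB1 and RITA1 kept their direction and their call under every alternative that could be run for them. Counted over the Notch pathway genes, the 2 calls of higher level became 1 with library totals alone, with at least 1 CPM required in all libraries and with near-identical copies summed, and 0 with limma on log2(TPM + 1). With each library left out in turn that count ran from 1 to 2. The 1 call of lower level was RBPJ under all of them. In the wider list, the 21 calls of higher level became 4 and the 7 of lower level became 3 with limma on log2(TPM + 1), and leaving out a library gave 16 to 19 higher and 4 to 8 lower, the lowest, 4 lower, without LacZ control replicate 2. NOTCH3 turned to 0.090 on the log2(TPM + 1) scale, and HES1 ranged from -0.23 to 0.19 with a library left out, above 0 without replicate 1 of BRD9 KO (0.19) or of LacZ control (0.10). With NOTCH2NL added, the NOTCH2 share of receptor transcripts was 79.1% in BRD9 KO and 79.6% in LacZ control, and as a share of expected counts, which favour long transcripts, 81.8% and 80.7%. The causes of these shifts were not tested. Same-numbered libraries did not deviate together (r = -0.05 across genes), so the replicate block has no basis beyond the number; with it 2 Notch pathway genes were higher and 1 lower, and 22 and 7 genes of the wider list. Where 1 library was left out, the remaining one was taken to vary as the other group does. HES1 and the genes under 10 counts are limited by depth. HES2 and MFNG were not tested where at least 1 CPM was required in all libraries.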
